A study of Arabidopsis thaliana with 4 samples.

Results

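The NAC transcription factors of Arabidopsis thaliana roots were followed here across 4 RNA-seq libraries, as 72 loci of the 21531 listed in the deposited tables. A locus was taken where the protein description attached to its first listed transcript named a NAC domain or a NAC transcription factor. The rule sets 5 further loci aside, of which 2, JUB1 and SOG1, had matched that text. The description does not find every family member: 13 further NAC loci on hand-written lists of the family, such as ATAF2, VND7 and CUC2, carried other wording and are not among the 72. The libraries came from roots of Columbia seedlings that were 6 d old, either wild type (Col) or the mutant luh-4, which carries a lesion in LEUNIG_HOMOLOG (LUH), the gene of a transcriptional co-repressor. About 500 seedlings were raised at pH 5.5 and moved to nutrient solution at pH 4.2 that held 0 or 25 µM AlCl3. Wild type and mutant were each sampled without Al (Col control, luh-4 control) and with it (Col Al, luh-4 Al), and each group is 1 library. Where 4 values follow each other below, they stand for Col and then luh-4, control before Al. Roots were collected after 4 h according to the treatment description, while controls are labelled 0 h, and the 4 h in acid solution may thus enter a ratio of Al to control.

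Each library held 13.5 to 13.8 M reads assigned to transcripts. LUH had 75 and 63 reads in the Col libraries and 0 in both from luh-4. All 12 root markers looked for were listed, with summed levels of 2010 to 3019 RPKM (reads per kilobase of coding length scaled to the library total). The 15 green shoot markers summed to 102, 77.8, 385 and 89.4 RPKM. The markers at 0 numbered 2, 1, 0 and 0. The luh-4 control library thus stood apart in shoot transcripts, and luh-4 Al was also set against Col control, with values given where this moved a result described here. Whether those transcripts have a part in any NAC difference was not tested. In bulk roots, fewer cells of a type and less RNA per cell cannot be told apart.

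NAC proteins are plant-specific transcription factors named after petunia NAM and Arabidopsis ATAF1, ATAF2 and CUC2. They share an N-terminal DNA-binding domain, the NAC domain, and differ in a C-terminal regulatory region. Some carry a membrane anchor and are released by proteolysis under stress, others switch on xylem, phloem, boundary or cell death programmes, and a subset is silenced by the microRNA miR164.

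With 1 library per group, a single comparison has no replicate check and no p-value. A gene was called measured where it reached 1 RPKM in a library compared. It was said to rise or fall, or to be higher or lower, where its log2 ratio of RPKM (0.1 added to each value) was at least 1 or at most -1 with a 95% counting interval that excluded 0. Values in parentheses after a log2 ratio are such intervals, which cover counting error only. The one test with a residual degree of freedom is an additive fit of genotype plus treatment to the reads of all 4 libraries (edgeR quasi-likelihood test, Benjamini-Hochberg adjustment over 17289 loci). Its error is how far the libraries stray from additivity, which is no measure of plant-to-plant variation, and genes are said to pass it at an adjusted p of 0.05.

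Most NAC genes were expressed at low levels in these roots and a few carried most of the family's transcript. Of the 72 loci, 60 had reads in every library, 4 were listed in a single library, and 17 stayed below 1 RPKM throughout. Those 17 included the jasmonate and drought factor ANAC019, with 1, 6, 7 and 0 reads, and the fibre wall regulator NST1, with 1, 0, 6 and 7. In Col control 18 members reached 10 RPKM, and the 8 highest held 58.0% of the family's summed RPKM. ANAC102, of the ATAF clade, was highest at 134, 150, 143 and 132 RPKM. Its sister ATAF1, a regulator of abscisate and stress responses, followed at 77.4, 117, 92.4 and 117 RPKM in the same order. ANAC017, the membrane-bound factor of mitochondrial stress signalling, was level across the libraries at 60.4, 62.4, 57.3 and 56.3 RPKM. Some neighbours of abundant members were near silence. ANAC016 lies beside ANAC017 and had 1 to 5 reads per library where ANAC017 had 1267 to 1443. ANAC077 lies beside ANAC078 and had 0 to 2 reads against 1175 to 1488.

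**Figure D1:**
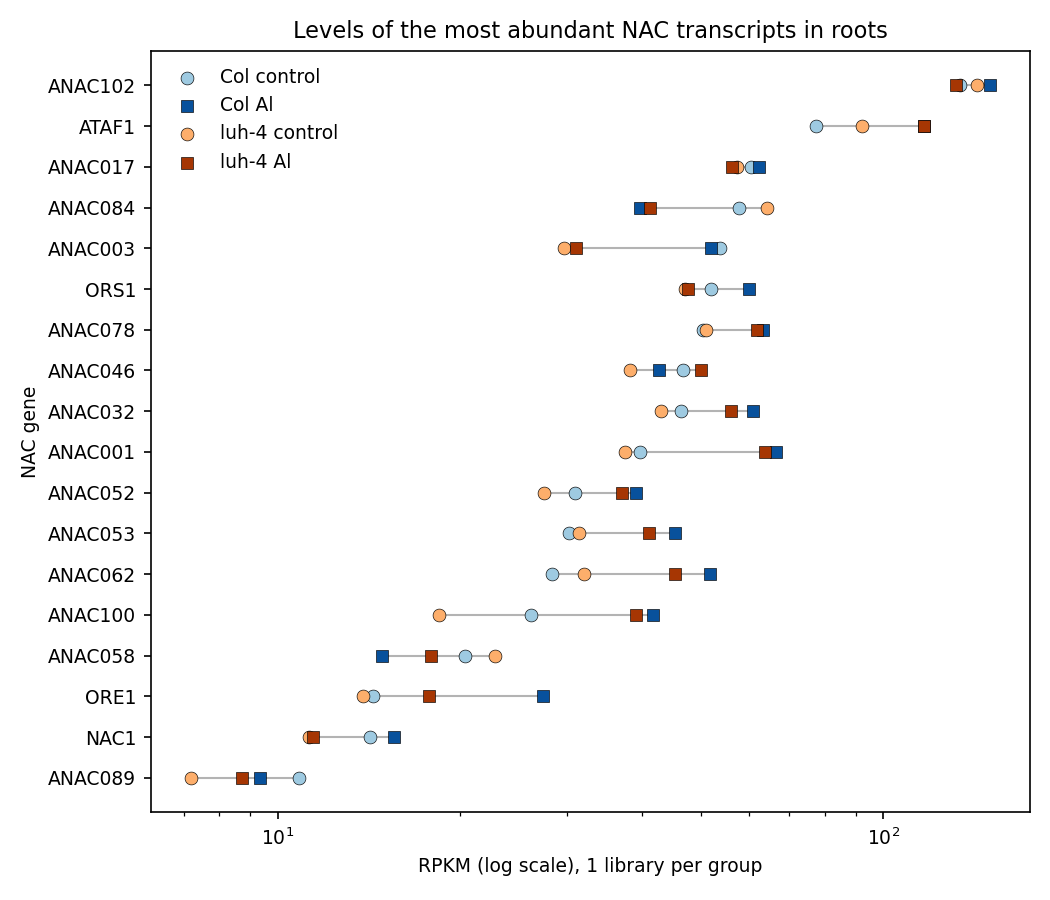
Level of each NAC gene with at least 10 RPKM in Col control, in RPKM on a log axis, with 1 point per library (circles control, squares Al, blue Col, orange and brown luh-4). Both Al libraries lie to the right of both control libraries for, among others, ANAC001, ANAC062, ANAC053, ANAC100 and ATAF1, and to the left for ANAC084 and ANAC058. The 2 luh-4 libraries lie to the left of both Col libraries for ANAC003 and, with smaller gaps, for NAC1, ORS1, ANAC017 and ANAC089.

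Under Al, responses of at least 1 on the log2 scale were rare in this family, and smaller increases were frequent among its abundant members. In Col 2 of 54 measured members rose and 1 fell, beside 2.6% and 2.91% of all measured loci. In luh-4 3 of 54 rose and 3 fell, beside 2.02% and 3.1%. Counts this close to the background are no result about the family. The median log2 ratio was 0.22 in Col, where that of all measured loci was 0.02, and 0.09 in luh-4, where it was -0.02. The family's summed level was 918 RPKM without and 1107 RPKM with Al in Col, and 890 and 1006 RPKM in luh-4. In the additive fit 11 of 53 members tested, or 20.8%, were higher with Al and 1 was lower, beside 5.6% and 6.69% of all loci tested. Of the 15 members at 20 RPKM or more in Col control, 8 were among the 11, beside 7.21% of all loci at that level, a limit chosen after the values were seen. Counted by intervals alone, 13 of 53 members lay above 0 in both genotypes and 2 below, beside 9.83% and 10.4% of all loci. With DESeq2 on the same design 4 members stayed higher, ANAC001, ANAC062, ANAC087 and ANAC100, and 0 lower. The share of all loci called by DESeq2 is not given here. The edgeR share is no background for that count, and whether the family stands out with DESeq2 is not shown.

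The 2 members with the largest rise were ANAC087 and ANAC011. ANAC087 (AT5G18270), which with ANAC046 promotes programmed cell death in the root cap, had 37 and 149 reads in Col without and with Al, and 49 and 150 in luh-4. Both Al libraries stood well above both controls. Its log2 ratio in Col was 1.96 (1.47 to 2.56), that in luh-4 was 1.62 (1.17 to 2.14), and its adjusted p in the edgeR additive fit was 0.000123. The reads covered at most 40.3% of its coding length, so its RPKM of 2.68 to 11.1 may understate its level. ANAC011 (AT1G32510) had 5, 22, 9 and 29 reads. It passed the RPKM minimum only through its Al libraries, at 1.87 and 2.53 RPKM against 0.428 and 0.769 in the controls. Its ratios were 1.90 (0.69 to 3.88) and 1.6 (0.60 to 2.98), with an adjusted p of 0.023 in the edgeR fit. Against Col control, luh-4 Al had 2.01 (1.52 to 2.61) for ANAC087 and 2.32 (1.18 to 4.29) for ANAC011. Adding 1 RPKM in place of 0.1 took its luh-4 ratio to 0.997, just under the limit.

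Sequences upstream of the gene start were searched for short motifs. Some of the windows printed below were chosen because they hold one, so they do not show how common the motifs are. The 250 bases before the annotated start were read from the RefSeq TAIR10.1 genome for members that passed the additive fit upwards and either held a searched motif or rose in both genotypes. Capitals mark matches, on either strand, to the W-box of WRKY factors (TTGACC or TTGACT) or to the G-box (CACGTG).
ANAC087 promoter: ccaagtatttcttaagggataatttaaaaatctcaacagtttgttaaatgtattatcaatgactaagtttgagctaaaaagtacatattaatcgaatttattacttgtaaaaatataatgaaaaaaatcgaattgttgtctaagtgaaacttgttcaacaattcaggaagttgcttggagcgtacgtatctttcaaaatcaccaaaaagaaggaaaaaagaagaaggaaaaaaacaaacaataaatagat
ANAC011 promoter: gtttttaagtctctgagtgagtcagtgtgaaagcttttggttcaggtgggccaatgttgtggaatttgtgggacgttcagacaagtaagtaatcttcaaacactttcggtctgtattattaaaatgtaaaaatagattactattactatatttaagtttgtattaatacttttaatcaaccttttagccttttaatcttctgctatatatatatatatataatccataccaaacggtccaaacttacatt
ANAC032 promoter: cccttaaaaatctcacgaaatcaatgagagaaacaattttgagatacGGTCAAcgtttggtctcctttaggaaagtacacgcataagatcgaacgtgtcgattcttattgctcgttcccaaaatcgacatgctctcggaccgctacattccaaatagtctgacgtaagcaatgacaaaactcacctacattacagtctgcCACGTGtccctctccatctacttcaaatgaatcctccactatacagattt
ANAC062 promoter: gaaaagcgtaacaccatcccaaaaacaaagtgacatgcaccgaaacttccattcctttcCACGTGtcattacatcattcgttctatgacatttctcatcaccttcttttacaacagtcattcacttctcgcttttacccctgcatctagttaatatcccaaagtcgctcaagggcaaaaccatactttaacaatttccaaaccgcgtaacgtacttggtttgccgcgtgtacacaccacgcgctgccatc
These windows are chr5:6043015-6043264 on the minus strand, chr1:11756441-11756690 on the plus strand, chr1:29099589-29099838 on the plus strand and chr3:18364960-18365209 on the minus strand, and 0 other annotated genes overlap any of them. ANAC087 and ANAC011 held neither motif. ANAC032 held a W-box that starts 203 bases before the gene start and a G-box at 50 bases, and ANAC062 held a G-box at 191 bases. Of the 11 members higher with Al, 1 held a W-box and 2 a G-box, against 28.4% and 6.49% of 27443 protein-coding genes. Over all 72 members, 8 (11.1%) held a W-box and 6 (8.33%) a G-box, and of the 41 members that passed the fit in neither direction 2 held a W-box and 3 a G-box. The element of the mitochondrial dysfunction stimulon, searched on both strands as CTTG, any 5 bases and then CAAG or CACG, was in 0 of the 11. It was in 4 of all 72 members, or 5.56%, and in 1.20% of all protein-coding genes. Those 4 were ANAC017 (cgtgtcagacaag, 110 bases before the start), SND3 (cttgacgtccacg, 88 bases), ANAC044 (cttggggagcaag, 65 bases) and ANAC045 (cttgctctccaag, 43 bases). A match of letters is a description and not a binding site.

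In the ATAF clade, which links abscisate, ageing and stress, 2 of the 3 measured members passed the edgeR fit upwards, where 5.6% of all loci did. ATAF1 had 922, 1402, 1104 and 1366 reads, with ratios of 0.59 (0.47 to 0.71) and 0.34 (0.22 to 0.45) and an adjusted p of 0.00266 (edgeR). ANAC032, a regulator of stress and senescence, had 483, 641, 450 and 575 reads, ratios of 0.39 (0.22 to 0.57) and 0.38 (0.20 to 0.57), and an adjusted p of 0.0191 (edgeR). Against Col control, ATAF1 in luh-4 Al had 0.59 (0.47 to 0.72). For both genes the Al libraries exceeded both controls. Neither ATAF1 nor ANAC032 passed with DESeq2. ANAC102, known from seed survival under low oxygen, had small ratios of opposite sign, in Col 0.17 (0.07 to 0.26), in luh-4 -0.12 (-0.21 to -0.02). Against Col control, ANAC102 in luh-4 Al had -0.02 (-0.12 to 0.08), an interval that included 0. The related drought and jasmonate clade was scarce. ANAC055 had 25, 35, 18 and 30 reads and RD26 20, 19, 21 and 17, and neither passed a rule.

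Of the 11 members on the list of membrane-bound factors 10 were tested, and 3 of them passed the edgeR fit upwards and 0 downwards, where 5.6% and 6.69% of all loci did. ANAC062, which moves from membranes to the nucleus under cold and endoplasmic reticulum stress, had 549 and 1009 reads in Col without and with Al, and 621 and 860 in luh-4. Its ratios were 0.86 (0.71 to 1.02) and 0.50 (0.35 to 0.65), with an adjusted p of 0.000577, and luh-4 Al had 0.67 (0.52 to 0.83) against Col control. ANAC053 and ANAC078, a pair that activates proteasome genes under proteotoxic stress, also passed. ANAC053 had 684, 1033, 712 and 910 reads and ratios of 0.58 (0.44 to 0.72) and 0.38 (0.24 to 0.53). ANAC078 had 1175, 1488, 1194 and 1420 reads and ratios of 0.33 (0.22 to 0.44) and 0.28 (0.17 to 0.39). For all 3 genes both Al libraries were above both controls. With DESeq2 ANAC062 passed, while ANAC053 and ANAC078 did not.

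ANAC017 had ratios of 0.05 (-0.06 to 0.15) for Col and -0.03 (-0.14 to 0.09) for luh-4. Its partner in mitochondrial signalling, ANAC013, which is also one of the genes it induces, had 14 and 25 reads in Col without and with Al, and 17 and 34 in luh-4. The ratios of ANAC013 were 0.74 (-0.18 to 1.88) and 0.94 (0.15 to 1.96), and it passed neither rule (adjusted p of 0.177, edgeR). Its reads covered at most 26.7% of the coding length, and it passed the RPKM minimum only through its Al libraries. Set against Col control, luh-4 Al gave 1.19 (0.37 to 2.32), past the size rule. The other measured membrane-bound members did not pass. ANAC069 went from 38 to 76 reads in Col (0.95, 0.41 to 1.59) and from 42 to 51 in luh-4, NTM1 had ratios of 0.09 and 0.26, the calmodulin-binding CBNAC 0.26 and -0.19, ANAC089 -0.21 and 0.28, and ANAC060 -0.35 and -0.83. Set against Col control, ANAC089 in luh-4 Al had -0.31 (-0.67 to 0.04). NTM1 and ANAC069 are neighbouring copies and may share reads.

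**Figure D2:**
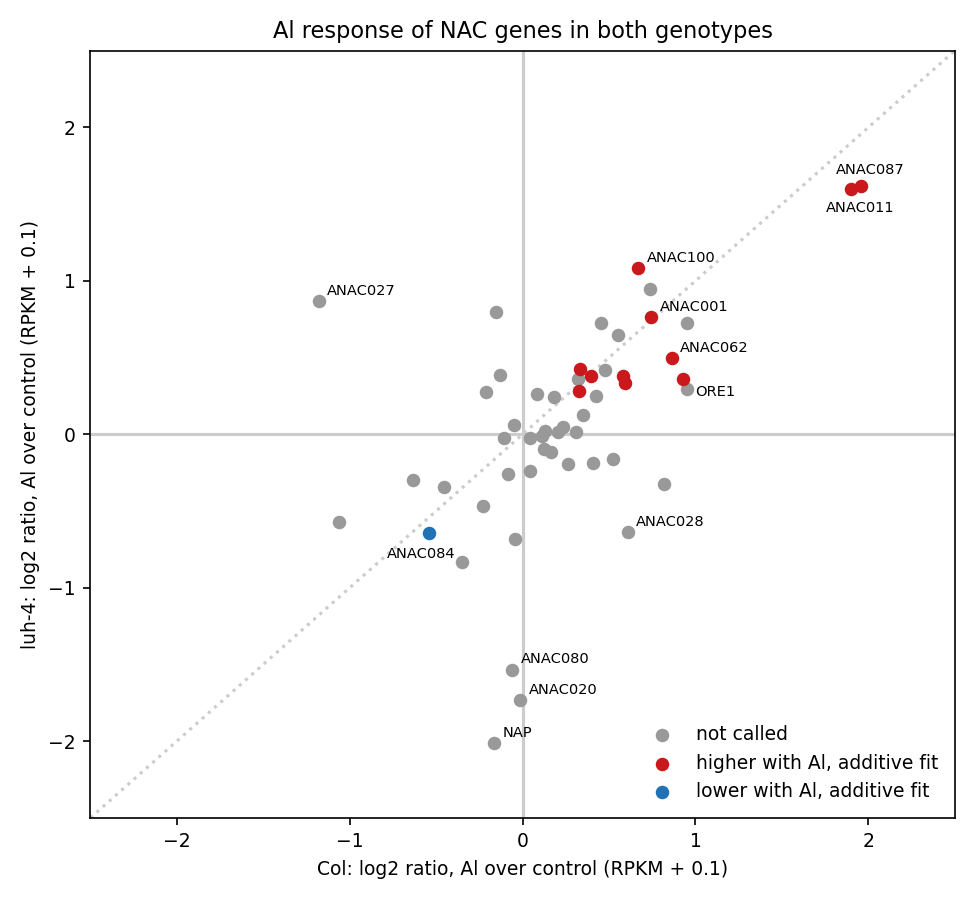
Log2 ratio of Al to control in Col (x axis) and in luh-4 (y axis) for the 53 NAC genes measured in both genotypes, coloured by the edgeR additive fit over all loci. The 11 genes higher with Al lie in the upper right, with ANAC087 and ANAC011 farthest out, and NAP, ANAC020 and ANAC080 lie near 0 in Col and below -1 in luh-4.

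Across the 53 members measured in both genotypes the Al responses had a Pearson r of 0.540 and a Spearman rho of 0.562, where r was 0.550 across all loci measured in both. The 2 responses share no library. Genes are not independent replicates and low counts enter on both axes. The sign was the same for 38 of 53 members, and for 65.6% of all loci.

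Of the targets of miR164, which limits organ boundary, lateral root and ageing factors, 4 are members, and their values ran from a rise to a fall. The mature microRNAs were read from the annotated positions in TAIR10.1, with the seed (bases 2 to 8) in capitals. In the target sites, read from the coding strand, capitals mark the bases that can pair with miR164a in the Watson-Crick manner.
miR164a: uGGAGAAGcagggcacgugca
miR164b-5p: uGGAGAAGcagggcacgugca
miR164c-5p: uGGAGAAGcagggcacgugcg
NAC1 site: aGCACGTaCCCTGCTTCTCCA
ANAC080 site: TttACGTGCCCTGCTTCTCCA
ANAC100 site: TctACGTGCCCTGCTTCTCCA
ORE1 site: ctCACGTGaCCTGCTTCTCCg
The sites lie in coding exons at chr1:20947142-20947162 (minus strand), chr5:2436958-2436978 (plus), chr5:24701687-24701707 (minus) and chr5:15858797-15858817 (minus). Each pairs with the whole seed. NAC1, ANAC080 and ANAC100 leave 2 positions outside Watson-Crick pairing and ORE1 leaves 4. A search of 27437 coding sequences with at most 4 such positions found 11 genes, these 4 and 7 others, CUC1 and CUC2 among them.

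ANAC100 (AT5G61430) had 363 and 583 reads in Col without and with Al, and 256 and 532 in luh-4. Its ratio in Col was 0.67 (0.48 to 0.86), that in luh-4 was 1.08 (0.87 to 1.31), where it rose, and its adjusted p was 0.00044 (edgeR). Set against Col control, luh-4 Al gave 0.576, and the call was lost. ORE1 (AT5G39610), a central regulator of leaf ageing, had 169, 325, 163 and 205 reads in the same order, so that Col Al was the highest library. Its ratios were 0.93 (0.66 to 1.21) and 0.36 (0.06 to 0.67), with an adjusted p of 0.0152 in the edgeR fit and 0.315 with DESeq2. NAC1, an auxin-responsive factor of lateral root formation, had 190, 210, 151 and 150 reads and passed no rule. ANAC080 (AT5G07680) had 29 and 28 reads in Col without and with Al, and 44 and 14 in luh-4. It fell in luh-4 by 1.53 on the log2 scale (-2.60 to -0.73) and had -0.06 (-0.87 to 0.74) in Col. Against Col control its ratio in luh-4 Al was -0.959, and the call was lost. Its reads covered at most 24.7% of the coding length.

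The other 3 members of the ageing and cell death list passed neither rule. ORS1, the sister of ORE1, had 682, 793, 619 and 612 reads, with ratios of 0.20 (0.06 to 0.35) and 0.01 (-0.15 to 0.18). ANAC046, the partner of ANAC087 in the root cap, had 651 and 600 reads in Col without and with Al, and 534 and 683 in luh-4, with ratios of -0.13 (-0.29 to 0.03) and 0.38 (0.22 to 0.55). Against Col control, ANAC046 in luh-4 Al had 0.10 (-0.06 to 0.25). ANAC047, on the same list, had -0.64 (-1.26 to -0.07) and -0.30 (-0.83 to 0.21). ANAC044, which acts downstream of SOG1 in the arrest of damaged cells, had 29, 58, 34 and 56 reads, both Al libraries above both controls. Its ratios were 0.95 (0.32 to 1.68) and 0.72 (0.11 to 1.41), short of the size rule, with an adjusted p of 0.0832 in the edgeR fit and 0.0495 when all loci with reads were kept.

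Some members outside these groups of known role also passed the edgeR fit for Al. Among them ANAC001 passed with DESeq2 as well, while ANAC052 and ANAC084 did not. ANAC001 (AT1G01010) had 700 and 1185 reads in Col without and with Al, and 664 and 1105 in luh-4. The 2 genotypes gave nearly the same ratio, 0.75 (0.61 to 0.88) and 0.76 (0.62 to 0.91), and its adjusted p of 7.23e-05 was the lowest of the family (edgeR). ANAC052, whose product binds the histone demethylase JMJ14, had 576, 732, 513 and 676 reads and an adjusted p of 0.0196 (edgeR), and it may share reads with its neighbouring copy ANAC050. ANAC084 (AT5G14000) was the only member that passed the edgeR fit downwards, with 491 and 340 reads in Col without and with Al, and 548 and 344 in luh-4. Its ratios were -0.54 (-0.75 to -0.34) and -0.64 (-0.84 to -0.44), with an adjusted p of 0.00187. ANAC058 leaned the same way, at -0.45 (-0.73 to -0.18) and -0.34 (-0.60 to -0.09), with an adjusted p of 0.0681 (edgeR). ANAC001, ANAC052 and ANAC058 were named after their values were seen.

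**Figure D3:**
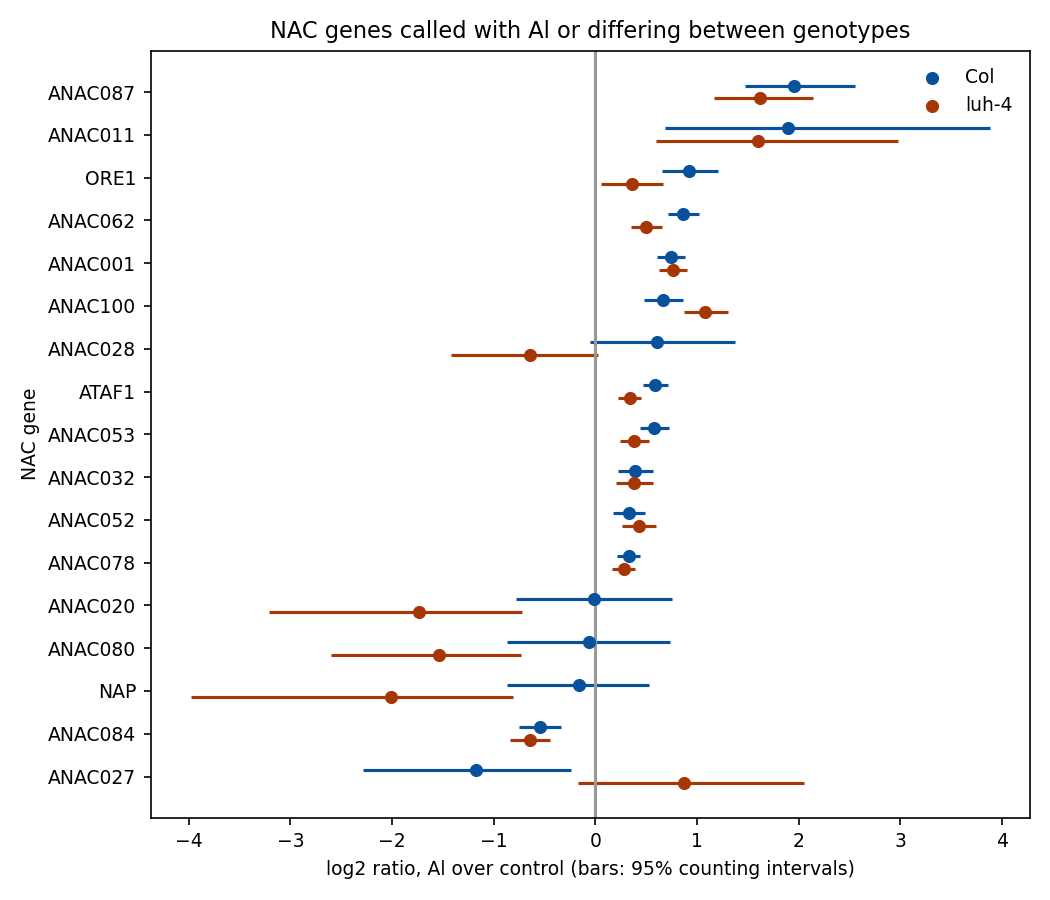
Log2 ratio of Al to control in Col (blue) and luh-4 (brown), with bars for 95% counting intervals, for the 12 NAC genes that passed the edgeR additive fit and the 5 whose Al responses differed between the genotypes. The intervals of abundant genes such as ANAC001 (0.61 to 0.88 in Col) are narrow, and those of NAP (-3.98 to -0.81 in luh-4) are wide.

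Xylem and secondary wall regulators passed no rule with Al. Of 8 measured in both Al comparisons, 0 passed the size rule in either genotype and 0 of 7 tested passed the edgeR fit, with medians of 0.32 in Col and 0.03 in luh-4. Of all measured loci, 2.6% rose and 2.91% fell in Col, and 2.02% and 3.1% in luh-4. In the edgeR fit 5.6% of all loci were higher and 6.69% lower. With so few genes, counts of 0 are no result about them. SND3, a regulator of fibre walls, had the lowest adjusted p of them, with 127, 179, 89 and 117 reads and 0.131 for Al (edgeR). The vessel regulators VND4, VND3, VND5 and VND2 had 20 to 177 reads per library, and VND2, at 25, 37, 23 and 20 reads, had ratios of 0.53 (-0.22 to 1.35) and -0.16 (-1.11 to 0.76). XND1, a brake on xylem differentiation, had 7 to 9 reads. The luh-4 control library gave more reads than Col control for ANAC075, an activator of VND7, at 159 against 109, and the ratio was 0.53 (0.18 to 0.91). Phloem factors had medians of 0.13 and -0.09, with 1 of 5 falling in luh-4, beside 3.1% of all measured loci. ANAC086 and ANAC045, which direct the loss of the nucleus in sieve elements, had 72 to 81 and 21 to 31 reads, and their ratios lay between -0.09 and 0.13. The member that fell, ANAC020 (AT1G54330), of early phloem development, had 31 and 31 reads in Col without and with Al, and 30 and 8 in luh-4. It fell in luh-4 by 1.73 (-3.21 to -0.72) and had -0.01 (-0.78 to 0.75) in Col. The luh-4 Al library alone was low.

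The members whose Al responses differed most between the genotypes had low counts. In 4 of these 5 members luh-4 Al was the lowest library, though for ANAC028 only at 28 reads beside 29 in Col control. The difference of Al responses (luh-4 minus Col) passed the size rule for 4 of 55 members downwards and 1 upwards, beside 2.26% and 1.35% of all loci. NAP (AT1G69490), which drives leaf senescence, had 39 and 35 reads in Col without and with Al, and 24 and 5 in luh-4. It fell with Al in luh-4 by 2.01 (-3.98 to -0.81) and had -0.16 (-0.87 to 0.53) in Col, a difference of -1.85 (-3.44 to -0.47). In the same pair of luh-4 libraries 12 of 13 measured green shoot markers and 8 of 12 jasmonate genes fell. Of all measured loci, 3.1% fell with Al in luh-4. The part of these markers and jasmonate genes in the differences was not tested. The difference was -1.72 (-3.11 to -0.49) for ANAC020, -1.47 (-2.66 to -0.39) for ANAC080 and -1.25 (-2.27 to -0.37) for ANAC028, a further gene of the phloem list with 29, 46, 46 and 28 reads. ANAC027 went the other way, with 30 and 13 reads in Col without and with Al, and 12 and 22 in luh-4 and a difference of 2.05 (0.71 to 3.43). NAP and ANAC020 also passed the limit when Col control replaced luh-4 control as the reference, at -2.69 (-4.64 to -1.59) and -1.78 (-3.26 to -0.77). The other three did not: the value in luh-4 Al became -0.96 (-2.06 to -0.06) for ANAC080, went from -0.64 to -0.02 (-0.83 to 0.78) for ANAC028, and turned from 0.87 to -0.41 (-1.28 to 0.42) for ANAC027. Among abundant members the differences were smaller: ANAC046 had 0.51 (0.29 to 0.74), ANAC100 0.41 (0.13 to 0.70), ORE1 -0.57 (-0.97 to -0.17) and ANAC062 -0.36 (-0.58 to -0.15). With Col control as reference, the response of ANAC100 in luh-4 Al, 0.58 (0.38 to 0.77), was below the 0.67 of Col, that of ANAC046 was 0.10 against -0.13, that of ORE1 was 0.30 (0.00 to 0.61) against 0.93, and that of ANAC062 was 0.67 against 0.86.

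Without Al, 0 of 51 measured members were higher in luh-4 and 2 were lower, beside 1.55% and 0.855% of all loci. The lower ones were ANAC027, at -1.28 (-2.43 to -0.32), and ANAC048, which went from 22 reads in Col control to 9 in luh-4 control, at -1.17 (-2.60 to -0.12) and passed the RPKM minimum only through Col control. In the same library pair 9 of 12 measured jasmonate genes and 10 of 13 green shoot markers were higher in luh-4. With Al, 1 of 55 was higher, ANAC094 at 1.24 (0.07 to 2.90) from 7 and 18 reads and above the RPKM minimum only in luh-4 Al, and 3 were lower, beside 1.22% and 0.946%. These 3 were NAP at -2.53 (-4.48 to -1.41), ANAC020 at -1.77 (-3.25 to -0.76) and ANAC074 at -1.08 (-2.00 to -0.33). NAP and ANAC020 were below the RPKM minimum in luh-4 Al and met it only in Col Al. Reads covered at most 42.6% of the coding length of ANAC027, 36.8% of that of ANAC048 and 38.2% of that of ANAC074. The family's median was -0.12, with 15 of 55 members above 0, against a median of -0.02 and 46.0% above 0 over all measured loci.

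A difference between the genotypes at both treatments was clearest in ANAC003 (AT1G02220). It had 872 and 851 reads in Col without and with Al, and 484 and 495 in luh-4, or 53.7, 52.0, 29.7 and 31.1 RPKM. The 2 luh-4 libraries were close to each other and below both Col libraries. Its luh-4 ratio was -0.85 (-1.02 to -0.69) without Al and -0.74 (-0.91 to -0.58) with Al, short of the size rule. In the edgeR additive fit it was the only member that passed for genotype (-0.80 on the log2 scale, adjusted p of 0.00223), beside 0.602% of all loci lower and 0.353% higher, and it passed with DESeq2 as well (adjusted p of 0.00719). With Al its ratios were -0.05 (-0.19 to 0.09) for Col and 0.06 (-0.12 to 0.25) for luh-4. Against Col control, ANAC003 in luh-4 Al had -0.79 (-0.95 to -0.63). Its neighbours ANAC004 and ANAC005 had at most 12 and 3 reads in any library. SND3 and NAC1 also had luh-4 ratios with intervals below 0 at both treatments. These were -0.51 (-0.92 to -0.11) without Al and -0.57 (-0.92 to -0.23) with Al for SND3. For NAC1 they were -0.33 (-0.65 to -0.02) and -0.44 (-0.76 to -0.14). Neither passed the edgeR fit for genotype.

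The remaining members were low and showed wide intervals. NARS1, an embryo and seed coat factor in the clade of NAP, had 113, 97, 98 and 69 reads, with ratios of -0.23 (-0.64 to 0.17) and -0.47 (-0.94 to -0.02), so that luh-4 Al was again the lowest library without passing the rule. ANAC103, which acts in the unfolded protein response, had 14, 26, 17 and 13 reads, and ANAC096, a factor of abscisate responses, had 20, 18, 13 and 23. The intervals of both included 0 in both genotypes. ANAC097 and ANAC099 had 55 to 71 and 23 to 28 reads, with ratios between -0.24 and 0.35. ANAC088 passed the RPKM minimum on 8 reads in luh-4 Al. Below that minimum, LOV1, a flowering and cold factor, had 8, 1, 2 and 0 reads, ANAC036 0, 2, 0 and 6, and ANAC071, known from the healing of cut stems, 6, 6, 9 and 3. The 4 loci listed in a single library, ANAC024, ANAC065, ANAC067 and ANAC077, all appeared in luh-4 control, with 1, 1, 1 and 2 reads. A count of 0 in the other libraries allows up to 3 reads.

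Genes known to act downstream of NAC factors were counted on lists written from general knowledge of the field. The mitochondrial dysfunction stimulon, the set induced through ANAC013 and ANAC017, had a median log2 ratio of 0.75 in Col and 0.50 in luh-4, beside 0.02 and -0.02 over all measured loci. Of its 13 members 4 rose and 1 fell in Col, beside 2.6% and 2.91% of all loci, and 3 of 12 rose and 1 fell in luh-4, beside 2.02% and 3.1%. In the edgeR fit 7 of 13 were higher with Al and 1 lower, beside 5.6% and 6.69%. The list was written with earlier results of these data known. Against Col control, luh-4 Al had a median of 0.48 over 13 genes, with 3 higher and 1 lower, an alternative added after the values were seen. The median and shares of all loci in that comparison are not given here. Whether the list stands out there is not shown. The glutathione transferase gene GSTU25 had 910, 2663, 710 and 1898 reads, with ratios of 1.54 (1.43 to 1.65) and 1.45 (1.32 to 1.58). The cytochrome P450 gene CYP81D8 had 1.45 (1.07 to 1.90) and 1.54 (1.15 to 2.02). GSTU24 rose in both as well, by 1.12 (1.04 to 1.20) in Col, but had 0.80 (0.71 to 0.89) in luh-4 Al against Col control. AOX1A, the alternative oxidase that marks mitochondrial stress, had 648, 1101, 673 and 1003 reads and an adjusted p of 0.000212 (edgeR), with ratios of 0.75 and 0.60 below the size rule.

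Other genes of that list varied. UPOX, HSP23.5 and MGE1 passed neither rule with Al. Their ratios were -0.25, 0.33 and 0.05 in Col and 0.11, -0.07 and 0.32 in luh-4. OM66, an outer mitochondrial membrane ATPase gene, had 376 and 1238 reads in Col without and with Al, and 967 and 942 in luh-4. It rose in Col by 1.70 (1.54 to 1.88), had -0.01 (-0.14 to 0.12) in luh-4 and was higher in luh-4 control than in Col control by 1.35 (1.19 to 1.53). Set against Col control, OM66 in luh-4 Al was higher by the same size, 1.35 (1.18 to 1.53). HRE2, a hypoxia-response factor, fell in both genotypes, at -1.10 (-1.76 to -0.50) and -1.16 (-1.80 to -0.59), and had -0.98 (-1.62 to -0.39) in luh-4 Al against Col control. The glucosyltransferase gene UGT74E2 was lower in luh-4 without Al and with Al, at -1.38 (-1.81 to -1.01) and -1.43 (-1.73 to -1.15). NDB4 of the same list was lower in luh-4 at both treatments as well, at -1.16 (-2.14 to -0.44) and -1.52 (-2.83 to -0.71). NDB4 had 43, 37, 18 and 11 reads and met the RPKM minimum only in the Col libraries.

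The other downstream lists had medians of smaller size. Of all measured loci, 2.6% rose and 2.91% fell in Col, and 2.02% and 3.1% in luh-4. In the edgeR fit 5.6% of all loci were higher and 6.69% lower. Counts in lists this small were not tested against these shares. Secondary wall targets had medians of 0.14 and 0.05 with 0 of 15 past the size rule in either genotype. In the edgeR fit 1 of the 15 was higher, the xylan gene FRA8 at 0.50 and 0.55 (adjusted p of 0.00159), and 1 lower, the metacaspase gene MC9. Against Col control, FRA8 in luh-4 Al had 0.15 (0.01 to 0.30). Proteasome genes had 0.09 and 0.07 with 0 of 8, and 1 of 8 passed the edgeR fit upwards, RPN1A. Unfolded protein response genes had 0.03 and 0.01, and 1 of 8 rose, BZIP60, at 1.18 (1.06 to 1.30) and 1.01 (0.89 to 1.14), the gene of a transcription factor of that response, which had 0.95 (0.83 to 1.08) in luh-4 Al against Col control, while the chaperone gene CNX1 was lower in the edgeR fit. Senescence targets had 0.35 and 0.13, and 2 of 8 rose in Col, the phosphatase gene SAG113 at 1.32 (0.63 to 2.21) and the abscisate synthesis gene NCED3 at 1.13 (0.62 to 1.77), and 0 of 8 in luh-4. In the edgeR fit 1 of these 8 was higher, the abscisate transporter gene ABCG40. Between the genotypes, PAO of this list was higher in luh-4 without Al, at 1.12 (0.58 to 1.77). NCED3 was lower in luh-4 with Al, at -1.04 (-1.66 to -0.53). Markers of programmed cell death in roots had -0.31 and -0.25, with 0 of 7 rising in either genotype, 1 falling in luh-4, PASPA3 at -1.19 (-2.23 to -0.42) and -0.66 (-1.72 to 0.22) against Col control, and 2 of 7 lower in the edgeR fit, RNS3 and MC9. Of the targets of the drought and jasmonate clade 2 were measured, ERD1 and ICS1, and neither passed.

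**Figure D4:**
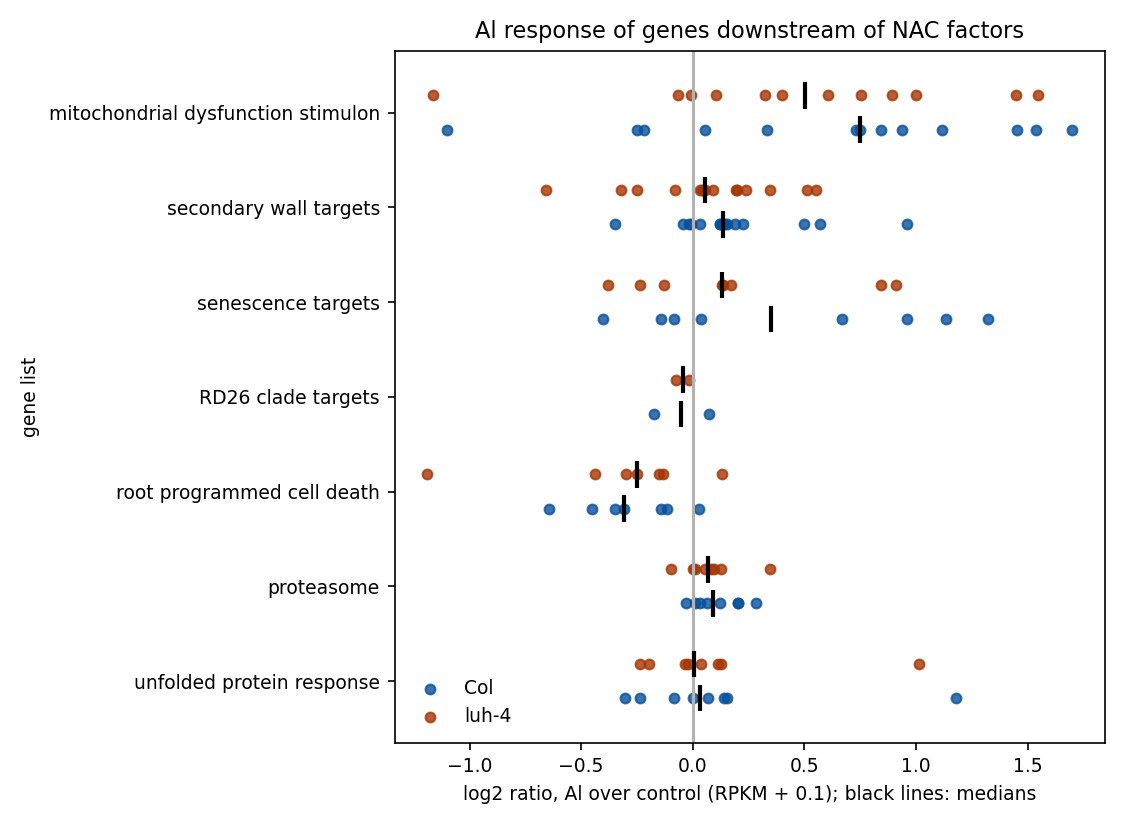
Log2 ratio of Al to control for the measured genes of each downstream list, in Col (blue) and luh-4 (brown), with a black line at the median of each list. The medians of the mitochondrial dysfunction stimulon, 0.75 and 0.50, lie to the right of those of the other lists, and those of root programmed cell death, -0.31 and -0.25, lie to the left of 0.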

How the data were processed

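The authors' tables, 1 per library, list transcripts with read counts, RPKM values that scale the counts by coding length and library total, and the percent of the coding length covered by reads, per the file headers. The submitters' processing notes name TAIR10, while the sources used here do not give the aligner, counting program or strand setting, so reads of near-identical copies or antisense partners cannot be separated. A transcript absent from a table was set to 0 reads, which allows up to 3. Counts and RPKM were summed per locus. Of 53 members with at least 40 reads over the 4 libraries, 13 had under 50% coverage in every library, so their RPKM may understate their level. Intervals were exact conditional binomial (Clopper-Pearson), and for the difference of Al responses normal on log reads with 0.5 added. The additive fit used edgeR 4.0.16 in R 4.3.3 with TMM factors and left out 19 members with few reads, and DESeq2 1.42.0 was an alternative. With 1 residual degree of freedom, no library can be left out. Nothing says that samples were replicated, so p-values measure the spread between these libraries only. Intervals were computed with scipy 1.17.1. Promoters and miR164 sites came from the RefSeq TAIR10.1 genome and its own annotation, since the deposited tables carry no coordinates. Protein features were not analysed here. The rules were tested on simulated reads with counting error only, for loci above a read minimum. That run does not cover low counts or variation between plants. Members, lists and tests were chosen with earlier results of these data known. Named were members past the size rule, the 8 of highest RPKM in Col control and members of 6 sub-lists at 1 RPKM or more. Genes of the downstream lists past the rule were named as well. Up to 4 per list by size were planned, and more are named for the stimulon. The remaining genes named, such as AOX1A, SND3, RPN1A and the members below 1 RPKM, were picked after their values were seen.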

Additional observations from a re-analysis of the deposited data

Results flagged for a closer look

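In 5 members the Al response differed between Col and luh-4 by at least 1 on the log2 scale with a counting interval that excluded 0, beside 1.35% of all loci upwards and 2.26% downwards. The difference (luh-4 minus Col) was -1.85 for NAP, -1.72 for ANAC020, -1.47 for ANAC080, -1.25 for ANAC028 and 2.05 for ANAC027. These are differences between single libraries of 5 to 46 reads, and they were not tested against variation between plants. With 1 RPKM added in place of 0.1 the number of members past the rule was 3, without the share of all loci at that setting beside it. With Col control as the reference of luh-4 Al, the values of ANAC028 and ANAC027 in luh-4 were -0.02 and -0.41.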

How the results depend on the processing

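No paired analysis was possible because each group has 1 library and the labels carry no replicate numbers. The call counts of this family are small and rest on low genes. The shares of all loci under the changed settings below are not given here. Whether the family moved with the background is thus not shown. With an RPKM minimum of 5 the count in Col was 1 rising and 0 falling, the falling count in luh-4 was 0, both genotype comparisons had 0 lower, 0 were higher with Al, and 0 members differed in response. With a pseudocount of 1, 0 fell in Col, 0 were lower in luh-4 without Al and 0 higher with Al, and 3 differed in response. Without an RPKM minimum 2 fell in Col, and 2 were higher and 5 lower in luh-4 with Al. Without the interval 2 fell in Col. Keeping loci covered over at least 50% left 1 rising and 0 falling in Col, 0 lower in luh-4 without Al and 3 differing in response. The first listed transcript alone left 1 lower in luh-4 without Al. TMM factors, centring, a pseudocount of 0.01 and, for luh-4, Col control as the baseline moved no count by more than 1.5 times. Adding the 13 NAC loci that the text rule misses, an alternative chosen after seeing the data, gave 1 higher in luh-4 without Al. In the additive fit DESeq2 called 4 members higher and 0 lower with Al, without a DESeq2 share over all loci beside it. Keeping all loci with reads in the edgeR fit gave 2 lower. With DESeq2 the adjusted p was 0.0526 for ATAF1, 0.0781 for ANAC053 and 0.0844 for ANAC084, and from 0.315 to 0.452 for ORE1, ANAC078, ANAC052 and ANAC032. DESeq2 gave no adjusted p for ANAC011. Of the 20 size-rule calls, 17 ended because an RPKM minimum of 5 left the member out, and 9 because 50% coverage did. Where an alternative gave a named member a value, 1042 of 1069 values kept their side of the rule, 0 reversed, 16 lost a call, 4 gained one and 7 moved beyond the counting interval.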
